A study of Mus musculus with 8 samples.

Results

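The caudal-type homeobox genes Cdx1, Cdx2 and Cdx4 and the even-skipped homeobox genes Evx1 and Evx2 were followed in mouse embryonic stem cells (ESC) and in the cells that these gave after treatment with retinoic acid (RA-DIFF). These 5 genes were picked by symbol from the 32567 genes of the RNA-seq count table, and all 5 were found. They were chosen because values of these same libraries, Evx2 among them, were already known, so their levels and differences are a description and carry no test. The study compared a wild-type parental ESC line with a huntingtin-null line homozygous for the Hdh ex4/5 allele, each as ESC and after differentiation. For the 2 RA-DIFF libraries, cells taken off feeder cells for 4 passages formed embryoid bodies over 8 days, with retinoic acid at 5 µM from day 4 on, and were then dissociated, plated and collected. Each of the 4 conditions has 1 library from 1 line, so nothing below could be checked against replicates and no p-value is given. All intervals below are 95% intervals that cover only the error of counting, and PCR copies of 1 molecule are not independent.

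The library totals lay between 63617410 and 110569127 counts. The targeted gene Htt had 7260 reads in ESC labelled Htt-null and 14385 in ESC labelled wild type, but 9722 in RA-DIFF labelled Htt-null and 8212 in RA-DIFF labelled wild type, so in RA-DIFF its direction went against the labels. Counts per gene do not show which exons or alleles the reads came from. In the study's supplementary gene table, the RA-DIFF values listed under each genotype lie closest to the deposited column that carries the other genotype's label, whereas the ESC values lie closest to the column of the same label. The RA-DIFF libraries are therefore named by the labels of the deposited columns. If those 2 labels were exchanged, every RA-DIFF difference between genotypes given below would keep its size and take the opposite direction. Summed over their lists, the pluripotency genes Pou5f1, Nanog, Esrrb and Zfp42 stood at 2976 CPM (counts rescaled to a common library total) in ESC labelled Htt-null and 2876 in ESC labelled wild type. They stood at 38.3 CPM in RA-DIFF labelled wild type and 5.03 CPM in RA-DIFF labelled Htt-null.

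Cdx proteins are transcription factors of the ParaHox family. They are switched on in the posterior of the gastrulating embryo by Wnt, FGF and retinoic acid signals, support growth of the body axis and activate Hox genes of the trunk. Cdx2 is also required in the trophectoderm, and Cdx1 and Cdx2 act in the intestinal epithelium. Evx1 and Evx2 lie beside the posterior ends of the HoxA and HoxD clusters, and both mark the V0 class of ventral interneurons in the spinal cord, which arises from progenitors that express Dbx1. In ESC treated with retinoic acid, Hox genes are activated in an order that follows their place in the clusters.

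All 5 genes were weakly expressed. Per length, given as RPKM (CPM divided by the exon length in kilobases), the highest level of any member was 1.05 RPKM, that of Evx2 in RA-DIFF labelled wild type, and the highest of the others was 0.398 RPKM, that of Cdx1 in the same library. In that library the order per length was Evx2, Cdx1 (0.398 RPKM), Cdx2 (0.132 RPKM), Evx1 (0.101 RPKM) and Cdx4 (0.00461 RPKM), and the counting intervals of Cdx2 (0.0940 to 0.185) and Evx1 (0.0713 to 0.142) overlapped. The study's methods set an expression limit of log2 CPM above 0. Taken here on the average over the 4 libraries, this limit was passed by 1 of the 5 members, Evx2 with 0.23, and by 15492 genes of the table. Cdx1, the next, stood at -1.26, and the lowest was Cdx2 at -3.07. Evx2 passed through the library where it was high.

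**Figure D1:**
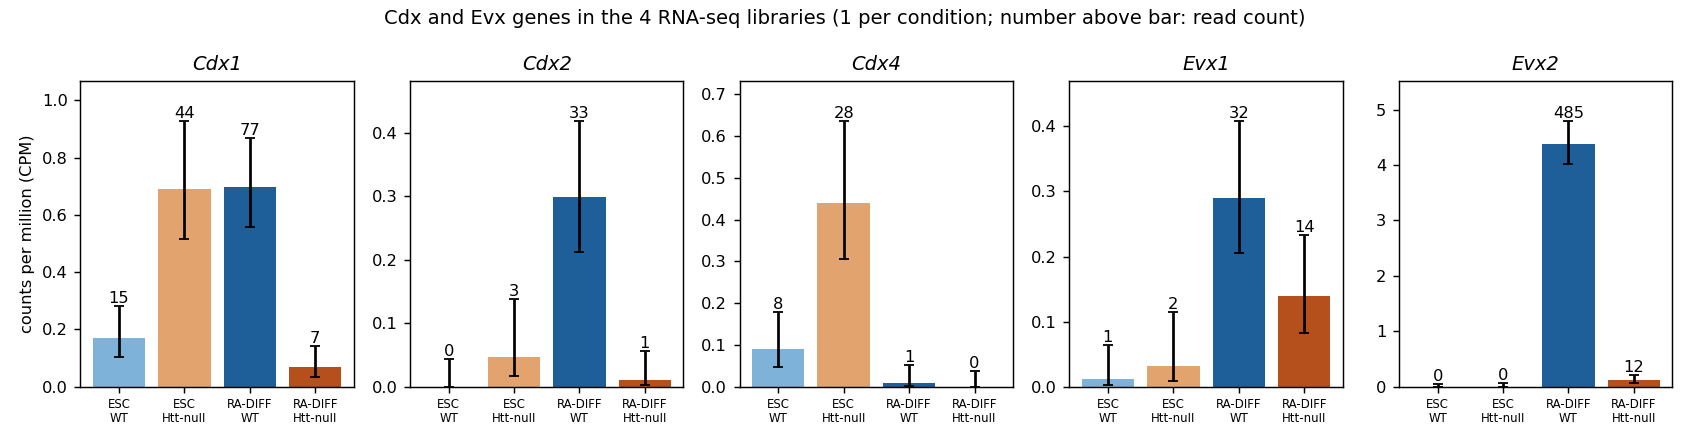
Level of each member in each of the 4 libraries (CPM, linear axes that start at 0 and differ between panels); bars are single libraries, error bars are 95% Wilson counting intervals, and the number above each bar is the read count. Evx2 stood at 4.39 CPM in RA-DIFF labelled wild type and at 0.119 CPM in RA-DIFF labelled Htt-null, while Cdx4 had its highest level, 0.440 CPM, in ESC labelled Htt-null.

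Evx2 (ENSMUSG00000001815), a transcriptional repressor of the even-skipped type, lies on the minus strand of chromosome 2 (GRCm38), from 74652991 to 74659557. It had 0 reads in ESC labelled wild type, 0 in ESC labelled Htt-null, 485 in RA-DIFF labelled wild type and 12 in RA-DIFF labelled Htt-null. The gene was thus found only in RA-DIFF, and far more in 1 of the 2 libraries. A count of 0 is compatible with up to 3 reads, which is 0.0341 CPM in ESC labelled wild type and 0.0472 CPM in ESC labelled Htt-null. After scaling with the TMM factors of edgeR, which correct for library composition, Evx2 was at least 125-fold higher in RA-DIFF than in ESC among the libraries labelled wild type. Among those labelled Htt-null it was at least 2.65-fold higher; both bounds are set against 3 counts in the ESC library. With the RA-DIFF labels exchanged, these bounds would be 3.52-fold in the wild type and 94.1-fold in the Htt-null cells. Between the RA-DIFF libraries, the one labelled wild type stood 35.5-fold higher (counting interval 20.1 to 69.2). Ranked from the lowest log2 ratio between the RA-DIFF libraries (Htt-null label over wild-type label), Evx2 was number 2 of the 15492 genes above the expression limit, a place that was known when the gene was picked.

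Evx1 (ENSMUSG00000005503), the paralogue of Evx2, lies on the plus strand of chromosome 6 (GRCm38), from 52313498 to 52318378. It had 1 read in ESC labelled wild type, 2 in ESC labelled Htt-null, 32 in RA-DIFF labelled wild type and 14 in RA-DIFF labelled Htt-null. Its place among the libraries was the same as that of Evx2, highest in RA-DIFF labelled wild type, but the gap between the RA-DIFF libraries was 2.01-fold (1.04 to 4.07). This interval does not overlap that of Evx2, and both rest on single libraries. Evx1 was 24.8-fold higher in RA-DIFF than in ESC among the libraries labelled wild type (4.14 to 1008), and 4.64-fold higher among those labelled Htt-null (1.06 to 42.0). With the labels exchanged it would be 12.3-fold and 9.31-fold higher. The antisense gene 5730457N03Rik overlaps Evx1 over 1335 bp and had 10, 0, 24 and 3 reads in the same order of libraries. The study's Methods name no strand option for HTSeq and say that unnamed settings were left at their defaults. That default reads strand in the sense opposite to dUTP libraries, yet housekeeping genes such as Actb had between 63532 and 285216 reads, so how strand was used is unclear and reads of the 2 genes cannot be told apart where they overlap.

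Cdx2 (ENSMUSG00000029646) lies on the minus strand of chromosome 5 (GRCm38), from 147300805 to 147307270. It had 0 reads in ESC labelled wild type, 3 in ESC labelled Htt-null, 33 in RA-DIFF labelled wild type and 1 in RA-DIFF labelled Htt-null. Only the RA-DIFF library labelled wild type stood clear of the few reads that a count of 0 allows. There it was at least 8.51-fold higher than in ESC labelled wild type, set against 3 counts, and 29.0-fold higher than in RA-DIFF labelled Htt-null, with a counting interval of 4.85 to 1180. No fold is given between the ESC libraries or for the libraries labelled Htt-null, where no value passed 3 counts. With the RA-DIFF labels exchanged, Cdx2 would have no fold in the wild type and would be 6.40-fold higher in RA-DIFF than in ESC in the Htt-null cells (2.01 to 32.6).

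Cdx1 (ENSMUSG00000024619), the member of the group best known as a direct target of retinoic acid, lies on the minus strand of chromosome 18 (GRCm38), from 61018862 to 61036199. It had 15 reads in ESC labelled wild type, 44 in ESC labelled Htt-null, 77 in RA-DIFF labelled wild type and 7 in RA-DIFF labelled Htt-null. Its order of levels was unlike that of the Evx genes, since ESC labelled Htt-null (0.692 CPM, 0.515 to 0.928) and RA-DIFF labelled wild type (0.696 CPM, 0.557 to 0.870) did not differ beyond their counting intervals and both stood above the other 2 libraries. Among the libraries labelled wild type, Cdx1 was 3.97-fold higher in RA-DIFF than in ESC (2.27 to 7.44). Among those labelled Htt-null it was 9.49-fold lower in RA-DIFF (4.24 to 25). Between genotypes, it was 3.90-fold higher in the Htt-null library in ESC (2.13 to 7.54) and 9.67-fold lower in the library labelled Htt-null in RA-DIFF (4.47 to 24.8). With the 2 RA-DIFF labels exchanged, Cdx1 would be 2.43-fold lower in RA-DIFF than in ESC in the wild type (0.934 to 7.05, an interval that includes no difference) and would stand at 1.02 times its ESC level in the Htt-null cells (0.694 to 1.51).

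Cdx4 (ENSMUSG00000031326), the X-linked member, lies from 103321398 to 103330592 on the plus strand of chromosome X (GRCm38). It had 8 reads in ESC labelled wild type, 28 in ESC labelled Htt-null, 1 in RA-DIFF labelled wild type and 0 in RA-DIFF labelled Htt-null. It was thus the member found in ESC and hardly at all in RA-DIFF. In ESC the Htt-null library stood 4.65-fold higher (2.07 to 11.8). Cdx4 was 10.3-fold lower in RA-DIFF than in ESC among the libraries labelled wild type (1.39 to 459), and at least 14.1-fold lower among those labelled Htt-null, set against 3 counts. Both RA-DIFF libraries lay at or under 3 counts, so no fold is given between them. With the labels exchanged, Cdx4 would be at least 3.03-fold lower in RA-DIFF than in ESC in the wild type and 48.1-fold lower in the Htt-null cells (7.95 to 1967).

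Counted by the limits of the methods, a log2 fold change past 0.75 and the expression limit, 1 member (Evx2) was higher in RA-DIFF than in ESC among the libraries labelled wild type, where 33.9% of the 15492 genes were higher and 26.1% lower. It was also the 1 member higher among the libraries labelled Htt-null, where 34.3% were higher and 24.8% lower. In RA-DIFF it was the 1 member lower in the library labelled Htt-null, where 8.99% were lower and 11.7% higher, and in ESC no member was called by these limits, against 5.14% of genes higher with the Htt-null label and 3.47% lower. When 10 counts or more in the higher library were asked for in place of the expression limit, 4 members entered the comparison in RA-DIFF, Cdx1, Cdx2, Evx1 and Evx2. All 4 were lower in the library labelled Htt-null, against 13.2% of the 21771 genes that passed. Cdx1 and Cdx2 entered only through the library labelled wild type, where they were high. In ESC 2 members entered, Cdx1 and Cdx4, and both were higher in the Htt-null library, against 11.1% of 21328 genes higher and 7.26% lower. Cdx4 entered only through the Htt-null library. Among the libraries labelled wild type, the same 4 as in RA-DIFF were higher after differentiation, against 35.5% of genes higher and 29.8% lower. Among those labelled Htt-null, Evx1 and Evx2 were higher and Cdx1 and Cdx4 lower, against 34.5% and 30.3% of genes. In these differentiation comparisons, only Cdx1 among the libraries labelled wild type reached 10 counts in both libraries. The others entered through the library where they were high. The rule that picked the members used these contrasts, and nothing is read from the shares. The comparisons share libraries: RA-DIFF labelled wild type enters both the differentiation and the genotype comparison.

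Promoter sequence is shown for Evx2, Evx1 and Cdx2, the members whose highest level was in RA-DIFF labelled wild type and which had 3 reads or fewer in each ESC library, so that the windows of the most abundant member and of 2 scarcer ones can be read side by side. Each is the 250 bases before the start site that RefSeq gives on GRCm38.p6, read 5′ to 3′ on the strand of the gene. Capitals mark the homeodomain core TAATGA on either strand, read as TCATTA where it is on the other strand. The Evx2 window is chr2:74659558-74659807 (minus strand), that of Evx1 is chr6:52313248-52313497 (plus strand) and that of Cdx2 is chr5:147307250-147307499 (minus strand), which reaches into the first exon of the GENCODE model of Cdx2.
Evx2: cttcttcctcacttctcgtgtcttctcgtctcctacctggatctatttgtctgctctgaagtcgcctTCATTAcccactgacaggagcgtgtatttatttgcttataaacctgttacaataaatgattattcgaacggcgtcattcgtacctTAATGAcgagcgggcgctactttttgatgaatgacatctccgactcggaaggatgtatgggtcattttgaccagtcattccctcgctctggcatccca
Evx1: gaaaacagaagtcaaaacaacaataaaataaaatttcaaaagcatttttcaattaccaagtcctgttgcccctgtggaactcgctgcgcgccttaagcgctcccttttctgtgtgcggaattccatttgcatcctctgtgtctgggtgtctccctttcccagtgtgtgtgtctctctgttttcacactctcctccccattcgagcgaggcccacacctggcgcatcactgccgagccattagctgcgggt
Cdx2: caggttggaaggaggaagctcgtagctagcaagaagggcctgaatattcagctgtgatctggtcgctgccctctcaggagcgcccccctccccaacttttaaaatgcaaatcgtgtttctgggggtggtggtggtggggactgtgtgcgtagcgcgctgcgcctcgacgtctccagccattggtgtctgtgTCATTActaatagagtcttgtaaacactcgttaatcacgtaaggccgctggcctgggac
The core TAATGA occurred at 2 places in the Evx2 window, starting 183 and 98 bases before the start site, and at 1 place in the Cdx2 window, starting 59 bases before it, while 8.59% of 32851 windows of the same length held it. The retinoid receptor half-site AGGTCA (14% of windows), the TCF/LEF motif CTTTGA (13.8%) and the CDX motif TTTATG (10.8%) were found in none of the 3 windows on either strand, nor in that of Cdx4. This says only that these letters are not in the 250 bases searched, and the window of Cdx1 was not among those searched. The number of CG dinucleotides was 14 for Evx2, 13 for Cdx2, 10 for Evx1 and 5 for Cdx4, against a median of 6 over all windows.

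The Evx genes were next set beside the Hox genes they adjoin. Hoxd13, the last gene of the HoxD cluster, which patterns digits and the tail end of the body axis, starts 8.8 kb from Evx2 and is transcribed away from it. It had 266 reads in ESC labelled wild type, 127 in ESC labelled Htt-null, 59 in RA-DIFF labelled wild type and 3 in RA-DIFF labelled Htt-null. Hoxd13 was therefore 5.83-fold lower in RA-DIFF than in ESC among the libraries labelled wild type (4.38 to 7.86), where Evx2 was higher. With the RA-DIFF labels exchanged it would be 101-fold lower (34.1 to 491), on 3 reads. Between the RA-DIFF libraries, Hoxd13 was higher in the one labelled wild type as Evx2 was, by 17.3-fold (5.63 to 86.2). Beyond Hoxd13, Hoxd12, Hoxd11 and Hoxd10 had at most 1 read in either RA-DIFF library. Further in, Hoxd9 had 6 reads in RA-DIFF labelled wild type and 50 in RA-DIFF labelled Htt-null, and Hoxd8 had 50 and 243, the reverse of the order seen at Evx2. On the other side of Evx2, the gene Lnp, 73.6 kb away and read in the same direction as Evx2, had 4694, 3223, 7953 and 5542 reads in ESC labelled wild type, ESC labelled Htt-null, RA-DIFF labelled wild type and RA-DIFF labelled Htt-null. Its log2 ratio between the RA-DIFF libraries (Htt-null label over wild-type label) was -0.33, in the direction of Evx2 but within the fold limit.

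On the HoxA side, Hoxa13, 52.6 kb from Evx1, had 47 reads in ESC labelled wild type, 5 in ESC labelled Htt-null, 1 in RA-DIFF labelled wild type and 5 in RA-DIFF labelled Htt-null. It was highest in ESC labelled wild type, where Evx1 had 1 read. Hoxa11 had 17, 7, 0 and 2 reads in the same order. Over the 39 Hox genes of the 4 clusters, 21 of the 27 genes of paralogue groups 1 to 9 had at least 100 reads in RA-DIFF labelled wild type and 15 in RA-DIFF labelled Htt-null, but none of the 12 genes of groups 10 to 13 did in either; the highest of these was Hoxd13 with 59 reads in the former and Hoxc10 with 37 in the latter. Evx2, next to Hoxd13, had 485 reads in RA-DIFF labelled wild type.

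**Figure D2:**
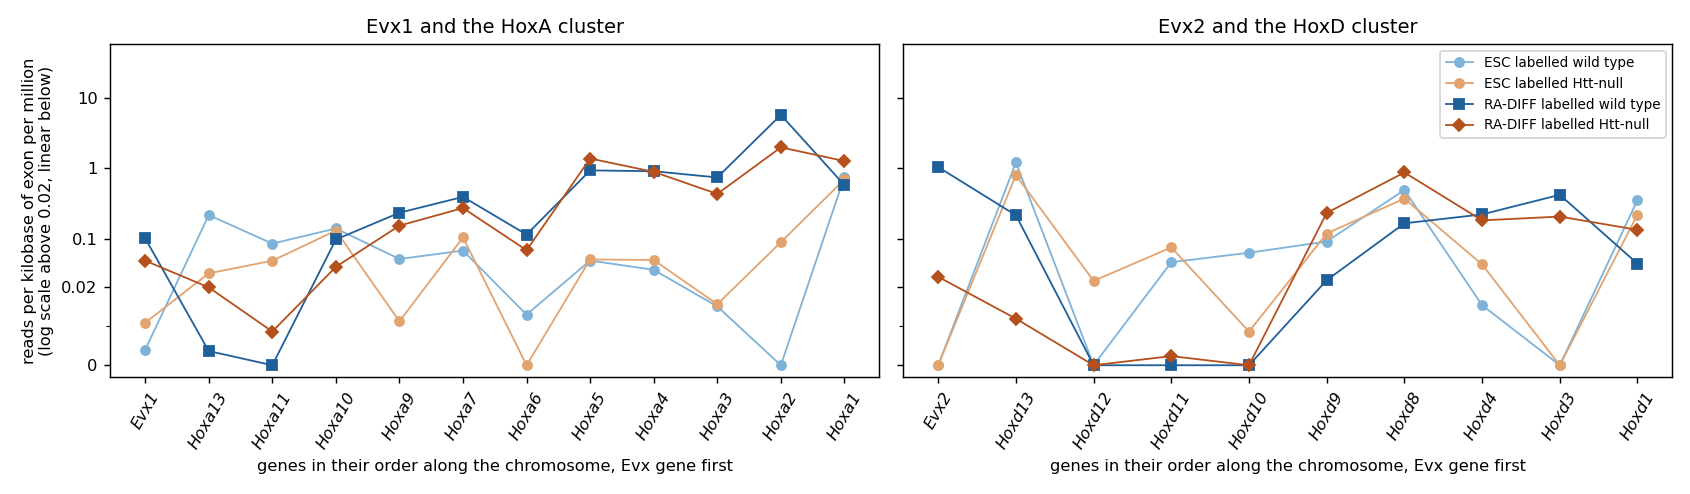
Level per length (RPKM, log scale above 0.02 and linear below) of Evx1 with the HoxA genes and of Evx2 with the HoxD genes, in their order along the chromosome; each point is 1 library and the lines only join the genes of a library. In RA-DIFF labelled wild type Evx2 stood at 1.05 RPKM and Hoxd13 at 0.215 RPKM, with Hoxd12, Hoxd11 and Hoxd10 listed at 0 reads.

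The neighbours of the Cdx genes were compared in the same way. Cdx2 belongs to the ParaHox cluster with Pdx1, a pancreas and duodenum factor that lies 25 kb away, and Gsx1, a factor of neural progenitors. Pdx1 had 8 reads in ESC labelled wild type, 14 in ESC labelled Htt-null and 0 in both RA-DIFF libraries, and Gsx1 had 25, 23, 755 and 544. Gsx1 was thus high in both RA-DIFF libraries, with a log2 ratio of -0.29 between them (Htt-null label over wild-type label), while Cdx2 was found in 1 of them. On the other side of Cdx2, Urad had 5 reads or fewer in each library and Flt3, beyond it, had 17 or fewer. Beside Cdx1, the transporter gene Slc6a7, 4.7 kb away, had 174 and 221 reads in ESC labelled wild type and Htt-null and 28 and 6 in RA-DIFF. The receptor gene Pdgfrb on the other side had 344 and 321 in ESC and 3742 and 4867 in RA-DIFF labelled wild type and Htt-null. The pseudogenes on one side of Cdx4 were, like Cdx4, lower in RA-DIFF. 4930519F16Rik, 9.6 kb away, had 370 and 182 reads in ESC labelled wild type and Htt-null and 13 and 20 in RA-DIFF, and Gm14848, 21.4 kb away, had 39 and 22 and then 6 and 5. On the other side the coding gene Chic1, 25.9 kb away, had between 2379 and 3744 reads in all 4 libraries.

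Genes of the posterior growth zone, where Cdx genes act in the embryo, went both ways between the RA-DIFF libraries. Of 16 listed genes 8 passed the expression limit; RA-DIFF labelled Htt-null had 2 of them higher and 4 lower, with a median log2 ratio of -0.25 against -0.01 over all genes that passed. The 4 lower ones, in the direction of the members, were Rspo3, an enhancer of Wnt signals, with 2768 reads in RA-DIFF labelled wild type and 939 in RA-DIFF labelled Htt-null, Sp5, a Wnt target, with 602 and 299, Tbx6, a factor of paraxial mesoderm, with 137 and 65, and Fgf4, which is also an ESC gene, with 122 and 6. The 2 higher ones were T and Wnt5b, the latter with 658 and 1572 reads. T (Brachyury), the mesoderm factor of the primitive streak and tail bud, had 68 reads in RA-DIFF labelled wild type and 1172 in RA-DIFF labelled Htt-null, a 19.6-fold difference (15.4 to 25.4) in the direction opposite to Cdx1 and Cdx2. Below the expression limit, Wnt3a, a ligand that keeps up Cdx expression in the tail bud, had 78 and 236 reads and Fgf8 had 42 and 138, both higher with the Htt-null label, while Wnt8a had 64 and 20. In ESC, the Htt-null library had 2 of the 8 genes higher and 1 lower, with a median of -0.32. The higher ones were Rspo3 with 17 reads against 1 and Wnt5b with 125 against 65, and the lower one was Sp5 with 2 against 16.

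Genes of the retinoic acid response were high after differentiation but moved both ways between the RA-DIFF libraries. Of the 11 of 12 that passed the expression limit, 9 were higher in RA-DIFF than in ESC among the libraries labelled wild type and 10 among those labelled Htt-null, and none was lower. Between the RA-DIFF libraries 5 were higher and 4 lower in the one labelled Htt-null, with a median of 0.07. Cyp26b1, an enzyme that breaks down retinoic acid, had 17738 reads in RA-DIFF labelled wild type and 1242 in RA-DIFF labelled Htt-null, a 12.6-fold difference (11.8 to 13.3) in the direction of the members. Rarb, a retinoic acid receptor and direct target, went the other way with 765 and 3805 reads, and Dhrs3 with 413 and 1875.

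The V0 interneuron genes were examined because Evx1 and Evx2 mark that class. Dbx1, the progenitor factor from which V0 neurons arise, had 0 reads in both ESC libraries, 14027 in RA-DIFF labelled wild type and 1228 in RA-DIFF labelled Htt-null. It was between 9.47- and 10.6-fold higher in RA-DIFF labelled wild type, the interval of counting error, the same direction as Evx1 and Evx2. All 7 listed genes passed the expression limit; RA-DIFF labelled Htt-null had 3 higher and 2 lower, with a median of 0.53, so the list as a whole did not share that direction. Lhx1, a LIM homeobox gene of several interneuron classes, had 3434 and 950 reads in RA-DIFF labelled wild type and Htt-null, while Pax8 had 621 and 1191 and Dbx2 had 72 and 136. Among 9 genes listed for other neuron classes of the spinal cord, 1 of the 5 that passed was higher and 3 were lower, with a median of -0.83. The lower ones were Gata3, of V2b neurons, with 1727 reads in RA-DIFF labelled wild type and 332 in RA-DIFF labelled Htt-null, Dmrt3, of the dI6 class, which is dorsal by origin, with 1266 and 624, and Foxd3, which is also an ESC gene, with 31 and 14. The higher one was Isl1, of motor neurons, with 386 and 1218. Sim1, of V3 neurons, lay below the expression limit and had 192 and 45.

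**Figure D3:**
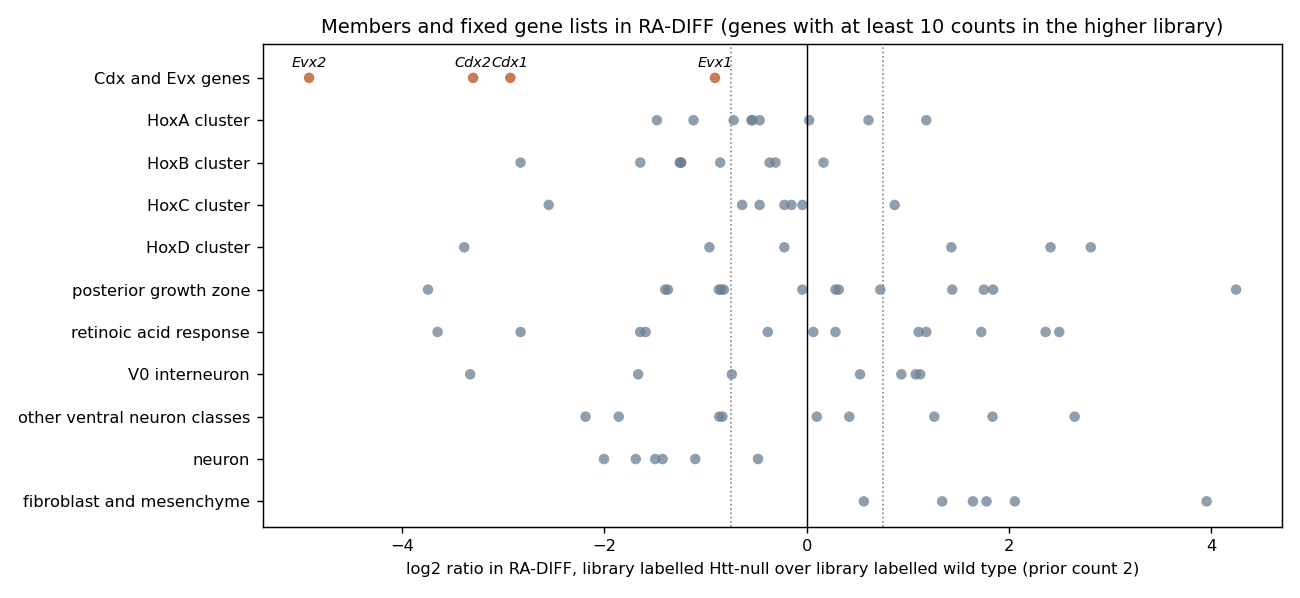
Log2 ratio between the RA-DIFF libraries, Htt-null label over wild-type label, for the members and for genes of fixed lists with 10 counts or more in the higher library; each point is 1 gene, the solid line is 0 the dotted lines are the fold limit of 0.75, and the row of other ventral neuron classes includes Dmrt3 of the dorsal dI6 class. The 4 members shown lie between -4.92 for Evx2 and -0.91 for Evx1, and T is the point farthest to the right, at 4.24.

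The 5 genes whose pattern over the 4 libraries was most like that of Evx2 were sought among the 16685 other genes with at least 100 counts in their highest library, by the Euclidean distance between log2 CPM profiles centred on their mean. They were the lincRNA Gm30340 (distance 0.82), Mab21l2 (1.02), Pdzph1 (1.19), the homeobox gene Uncx (1.23) and Klhl1 (1.38). Gm30340 had 0 reads in both ESC libraries, 266 in RA-DIFF labelled wild type and 14 in RA-DIFF labelled Htt-null. Uncx had 4, 6, 893 and 70 reads, and Klhl1 had 1, 2, 533 and 53. With 4 libraries the likeness rests on 4 values per gene, and no other member reached 100 counts in a library, so none was compared in this way.

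**Figure D4:**
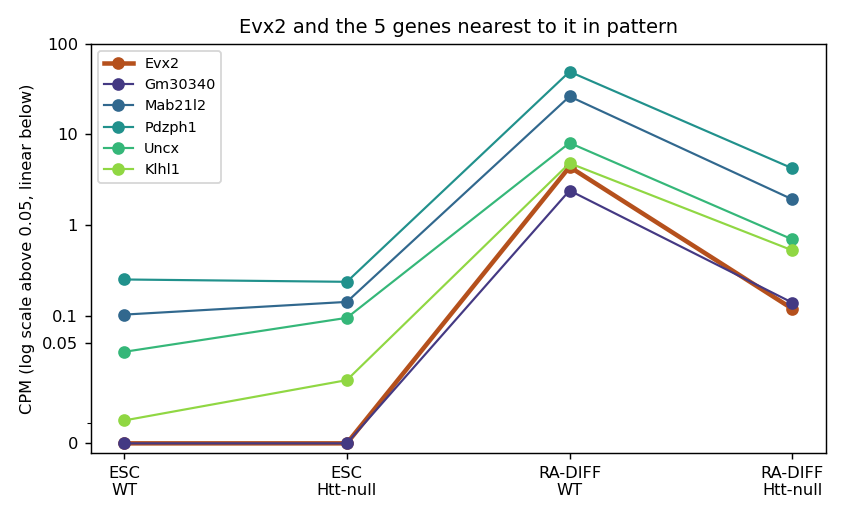
Level in CPM (log scale above 0.05, linear below) of Evx2 and of the 5 genes nearest to it in pattern, in the 4 libraries; each point is 1 library and the lines only join the points of a gene. All 6 genes are highest in RA-DIFF labelled wild type, where Evx2 stood at 4.39 CPM.

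Markers of other tissues in which Cdx genes act were also examined. For the intestine, Fabp2 and Isx had at most 4 reads in any library, but other listed genes were found. Lgals4 had 361 and 381 reads in ESC labelled wild type and Htt-null and 217 and 206 in RA-DIFF, Hnf4a had 460 and 658 in ESC and 18 and 2 in RA-DIFF, Vil1 had 432 and 327 and then 57 and 38, and, below the expression limit, Muc2 had 35 and 26 and then 94 and 30, while Cdh17 had 40 and 4 and then 7 and 48. Guca2a, with 1 and 3 and then 11 and 8, and Tff3, with 1 and 4 and then 21 and 22, were higher in both RA-DIFF libraries. Of the 3 listed intestine genes above the expression limit, all were lower in RA-DIFF than in ESC in both genotypes, and 1 was lower in RA-DIFF labelled Htt-null. Of 10 trophectoderm genes 5 passed the limit, and after differentiation 4 of them were lower among the libraries labelled wild type and 5 among those labelled Htt-null. Between the RA-DIFF libraries, Eomes, shared by trophectoderm and primitive streak, had 920 reads with the wild-type label and 361 with the Htt-null label and Tfap2c had 786 and 333, while Tead4 went the other way with 53 and 131. Krt7 had 43 and 46 and Ascl2 16 and 12. Below the limit, Plac1 had 0 and 4 reads in ESC labelled wild type and Htt-null and 74 and 75 in RA-DIFF, Gcm1 had 15 and 45 and then 13 and 30, Elf5 had 29 and 18 and then 50 and 27, Hand1 had 11 and 13 and then 1 and 0, and Tpbpa had 4 reads in RA-DIFF labelled Htt-null and 0 elsewhere. For early blood, which Cdx4 supports in the embryo, 3 of 8 listed genes passed the limit, 1 higher and 1 lower in RA-DIFF labelled Htt-null. Tal1, which is also made in V2b neurons, had 2016 reads in RA-DIFF labelled wild type and 232 in RA-DIFF labelled Htt-null, Runx1 went the other way with 291 and 656, and of the globin genes Hbb-bh1 had at most 4 reads in any library and Hba-x had 9 in RA-DIFF labelled Htt-null and 0 in the others.

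The 2 RA-DIFF libraries also differed in genes of broader cell types. The summed level of 6 neuron genes was 2589 CPM in RA-DIFF labelled wild type and 1125 CPM in RA-DIFF labelled Htt-null, and 5 of the 6 were lower in the latter. For 6 fibroblast and mesenchyme genes the sums were 562 and 1972 CPM, and 5 of the 6 were higher in the latter. The 4 pluripotency genes were all lower there. The paper, with its own longer list of neuron genes, reports most of those affected as raised further in the null cells. The summed neuron level would take that direction with the RA-DIFF labels exchanged. Between the RA-DIFF libraries, the neuron and pluripotency sums went in the direction of Evx2, Evx1, Cdx1 and Cdx2. The fibroblast and mesenchyme sum went in the opposite direction. The part of these genes in the differences of the members was not tested. In bulk RNA, fewer cells that express a gene and less RNA of it per cell cannot be told apart. In ESC, where Cdx1 and Cdx4 were higher in the Htt-null library, none of the 4 pluripotency genes passed the fold limit between the libraries. Of the 6 fibroblast and mesenchyme genes, 4 were lower in ESC labelled Htt-null, with a median of -1.01, such as Col3a1 with 208 reads in ESC labelled wild type and 53 in ESC labelled Htt-null and Acta2 with 294 and 92. Of the 6 neuron genes 2 passed the fold limit, Tubb3 with 2942 and 4420 reads and Dcx with 5 and 8, whose counting interval includes no difference. In ESC, Tubb3 thus went in the direction of Cdx1 and Cdx4, and Col3a1 and Acta2 in the opposite one. Their part in the differences of Cdx1 and Cdx4 was not tested. Genes of polycomb complex PRC2, which holds Hox, Cdx and Evx loci silent in ESC, gave 0 of 8 calls between genotypes in ESC and 0 of 8 in RA-DIFF. With RA-differentiation, 5 of the 8 were lower among the libraries labelled wild type and 5 among those labelled Htt-null, with medians of -1.25 and -1.35.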

How the data were processed

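RNA-seq libraries from 4 conditions, 1 per condition, were analysed; the small RNA table was not used here, since the members are protein-coding genes. The deposited values are raw counts per gene. Per the labels and the study's Methods, the authors made strand-specific dUTP libraries from poly-A RNA, sequenced them as paired-end reads of 50 bp, aligned them to GRCm38.p4 with TopHat2 2.0.14 under GENCODE guidance and counted them with HTSeq 0.6.1. No strand option is named for the counting, and unnamed settings were defaults by the Methods' account. Library totals ranged from 63617410 to 110569127; precision for the members is set by their small counts.

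From these counts, TMM factors over the 4 libraries, log2 CPM with a prior count of 2 and average log2 CPM were computed with edgeR 4.0.16 (R 4.3.3). Log2 fold changes used for calls are on that scale; printed folds are ratios of TMM-scaled CPM without a prior count, with exact (Clopper-Pearson) intervals conditional on the sum of both counts, and levels carry Wilson intervals on library totals. A library at 0 was set to 3 counts for a bound, and no fold is given when both libraries have 3 counts or fewer. With 1 library per condition the quasi-likelihood test could not be fitted. Alternatives were library size or DESeq2 1.42.0 size factors for scaling, other expression and fold limits, edgeR's exact test with an assumed dispersion of 0.1 or 0.01, a smaller prior count, and exchanged RA-DIFF columns. Exon lengths came from GENCODE vM21 on GRCm38, promoters from RefSeq. Tables and intervals were made with Python 3.11.15 and scipy 1.17.1. The fold calls were also run on simulated counts. These had counting error alone, and the genes changed in them had higher mean levels than any member. They therefore do not check the calls of the members or the spread between replicates.

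The members and the 16 gene lists were chosen with earlier results of these data known, and the motif letters with the windows in view. Named genes are the members, Htt, neighbours within 100 kb, the 5 genes most like a member with at least 100 counts, and the list genes with the largest RA-DIFF and ESC log2 ratios at 100 counts or more; other list genes named were chosen after their values were seen, and some genes the rule names are not described.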

Additional observations from a re-analysis of the deposited data

Results flagged for a closer look

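Cdx1 went in opposite directions under the same contrast. Its log2 change with RA-differentiation was 1.86 among the libraries labelled wild type and -2.90 among those labelled Htt-null, and for Htt-null against wild type the log2 ratio stood at 1.84 between the ESC libraries and at -2.93 between the RA-DIFF libraries. With 1 library per condition the difference between these effects was not tested. The 2 contrasts are made from the same 4 libraries, so they are 1 observation. The opposition holds for the labels as deposited: with the RA-DIFF labels exchanged, the log2 ratios of Htt-null against wild type would be 1.84 and 2.93, in the same direction, and the changes with RA-differentiation would be -1.07 and 0.03.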

How the results depend on the processing

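The number of members called depended on the expression limit. With 10 counts or more in the higher library in its place, 4 members were called for RA-differentiation in the libraries labelled wild type (4 higher), 4 in those labelled Htt-null (2 higher, 2 lower), 2 between the ESC libraries and 4 between the RA-DIFF libraries, against 1, 1, 0 and 1 with it. With no limit the numbers were 5, 5, 3 and 4, and among the libraries labelled Htt-null the majority turned to lower (2 higher, 3 lower); members with 8 or fewer counts enter there by construction. Library size, DESeq2 size factors, a log2 fold limit of 1 and the exact test with an assumed dispersion of 0.1 or 0.01 gave the same numbers as the reported limits. Exchanging the RA-DIFF columns turned the 1 member called in RA-DIFF from lower to higher in the Htt-null cells. By construction the log2 ratios there became 4.92 for Evx2, 3.30 for Cdx2, 2.93 for Cdx1 and 0.91 for Evx1. The log2 change of Cdx1 with RA-differentiation became -1.07 in wild-type and 0.026 in Htt-null cells. The 33 recomputed values of 11 log2 changes of members under other scalings or a smaller prior count all stayed within their counting intervals, some of which are wide. Read as plain folds instead of log2 values, 3 of them moved by over 1.5 times with the smaller prior count, all with 1 read in a library. On the log2 scale, Cdx2 between the RA-DIFF libraries went from -3.30 to -4.68. With RA-differentiation among the libraries labelled wild type, Cdx4 went from -1.88 to -3.18 and Evx1 from 3.19 to 4.47. No paired analysis was possible because each condition has 1 library and the labels carry no replicate numbers, and for the same reason no replicate could be left out. Where both libraries had 3 counts or fewer, a difference was not detectable at this depth, which applies to Evx1, Evx2 and Cdx2 between the ESC libraries, to Cdx4 between the RA-DIFF libraries and to Cdx2 with RA-differentiation among the libraries labelled Htt-null.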
